A study of Mus musculus with 6 samples.

Results

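The B cell identity genes, 9 genes that mark B lymphocytes, were followed across the 6 libraries of the series: Ms4a1, Cd79a, Cd79b, Pax5, Blk, Cr2, Fcer2a, Cd22 and Pou2af1. They were taken from the deposited count table by gene symbol, and all 9 were found among its 34590 symbols. Immunoglobulin loci were not members. Each library came from an inguinal mammary gland (gland number 4), a cleared fat pad into which donor mammary epithelium had been grafted. There were 3 host mice, numbered 1 to 3, each with a WT.EGFP+ graft on the left and an Adamts18-/-.EGFP+ graft on the right, which means that the genotype of a graft and its side cannot be told apart. A figure legend of the study gives 3 separate experiments and 3 donors for the profiled pairs. Host, donor and experiment can therefore not be told apart, and a difference between hosts below may belong to any of them. Values of a group are given below in the order of mice 1, 2 and 3. The mutant allele lacks the exons of Adamts18 that encode the catalytic site of this secreted protease. EGFP, the green fluorescent protein, was carried by both donor genotypes under a chicken β-actin promoter, which is active in most cell types and not in epithelium alone. According to the study's methods, hosts of such grafts were WT females, whose stroma, vessels and immune system were their own and who received the graft before puberty. The age at which these 3 hosts were sampled is not given in the sources used here. The labels describe the RNA as that of GFP+ mammary epithelial cells sorted by their fluorescence, whereas the study's text speaks of profiled glands. Nothing in the labels says whether lymph node tissue was removed.

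B lymphocytes recognise antigen through the B cell receptor, in which a membrane immunoglobulin is held by the signalling chains CD79A and CD79B. Binding of antigen activates kinases of the Src family, among them BLK, and the response is tuned by co-receptors such as CD22, which restrains it, and CR2, which lowers its threshold. Pax5 is the transcription factor that keeps a cell in the B lineage, and it is shut off when the cell becomes an antibody-secreting plasma cell. In the mouse, B cells are dense in lymph nodes, and the inguinal gland surrounds the subiliac lymph node. Epithelial cells of the mammary ducts are not known to express the B cell receptor.

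Promoter sequences are shown for 3 members with different roles, since all 9 genes were high in the same libraries: a receptor chain, an inhibitory co-receptor and the complement receptor with the widest spread. They are from RefSeq (GRCm38.p6), run from 250 bases before the start site to 50 bases after it, and read 5′ to 3′ on the strand of the gene. The Cd79a window is chr7:24897247-24897546 on the plus strand, the Cd22 window is chr7:30878979-30879278 on the minus strand, and the Cr2 window is chr1:195176670-195176969 on the minus strand. Capitals mark the E-box CAGGTG or its reverse complement, bound by E proteins of the Tcf3 family, and in Cd22 also the core CCCNNGGG of the Ebf1 motif, both searched on both strands.
Cd79a: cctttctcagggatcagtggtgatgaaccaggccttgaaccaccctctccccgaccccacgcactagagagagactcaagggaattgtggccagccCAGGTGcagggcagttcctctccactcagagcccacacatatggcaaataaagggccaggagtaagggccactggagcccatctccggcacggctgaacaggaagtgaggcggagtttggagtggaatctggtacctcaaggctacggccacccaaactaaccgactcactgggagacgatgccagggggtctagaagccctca
Cd22: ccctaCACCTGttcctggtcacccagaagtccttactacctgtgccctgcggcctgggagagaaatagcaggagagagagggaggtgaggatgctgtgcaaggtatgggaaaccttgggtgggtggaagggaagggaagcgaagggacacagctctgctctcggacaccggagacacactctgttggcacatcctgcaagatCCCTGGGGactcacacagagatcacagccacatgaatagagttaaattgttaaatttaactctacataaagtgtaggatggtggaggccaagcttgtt
Cr2: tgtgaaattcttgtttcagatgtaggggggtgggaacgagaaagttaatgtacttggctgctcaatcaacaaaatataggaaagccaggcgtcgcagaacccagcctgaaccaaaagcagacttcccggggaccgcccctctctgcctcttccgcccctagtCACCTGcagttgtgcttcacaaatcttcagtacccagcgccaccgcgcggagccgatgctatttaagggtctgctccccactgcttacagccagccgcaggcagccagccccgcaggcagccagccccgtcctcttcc
In the RefSeq table, 6 members had 8 promoter windows, and Ms4a1, Cd79b and Blk had none. The E-box was present in 4 of the 8 windows, those of Cr2 (88 bases before the start site), Cd79a (154 bases), Cd22 (245 bases) and 1 of the 3 windows of Fcer2a (244 and 99 bases). Among 32851 promoters of the same length, 20.2% held it. The Ebf1 core was found in the Cd22 window alone, 48 bases before the start site, and in 13.7% of all promoters. The octamer ATGCAAAT, bound by the factors that the product of Pou2af1 assists, was in 0 of the 8 windows and in 1.74% of all promoters. These matches are descriptions of letters in a window.

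Total counts ranged from 53875123 to 71595924 per library, so that 3 reads correspond to between 0.0430 and 0.0574 CPM (read counts scaled to a common library size with the TMM factors of edgeR). Adamts18 itself was counted at 252, 608 and 383 reads in WT glands and at 144, 295 and 202 in Adamts18-/- glands. It was lower in all 3 Adamts18-/- glands, with a log2 fold change of -0.83 ± 0.19 (SE) that passed the study's thresholds without adjustment (adjusted p = 0.987, edgeR). Reads outside the deleted exons can still be counted, and the study reports stromal Adamts18 expression in WT fat pads that carry mutant epithelium. The counts are per gene, and the source of the remaining reads was not tested. The glands of mouse 3 stood apart in markers of several immune cells, as given below, and the main results are therefore also given without them. Summed over 15 T cell genes, the level was 68.2, 129 and 329 CPM in the WT glands and 58.6, 87.5 and 965 CPM in the Adamts18-/- glands. In bulk RNA, fewer cells of a type and less RNA per cell cannot be told apart.

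The B cell identity genes were detected in every library, at low levels in mice 1 and 2 and at high levels in mouse 3. Together they took 1650, 1455 and 9709 reads in WT glands and 1019, 1024 and 52300 reads in the Adamts18-/- glands. On the CPM scale the summed level was 23.7, 23.7 and 172 in WT glands and 19.5, 16.9 and 851 in Adamts18-/- glands. Both glands of mouse 3 lay above all 4 glands of the other mice, the WT gland at 7.27 times the highest of them and the Adamts18-/- gland at 35.9 times.

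**Figure D1:**
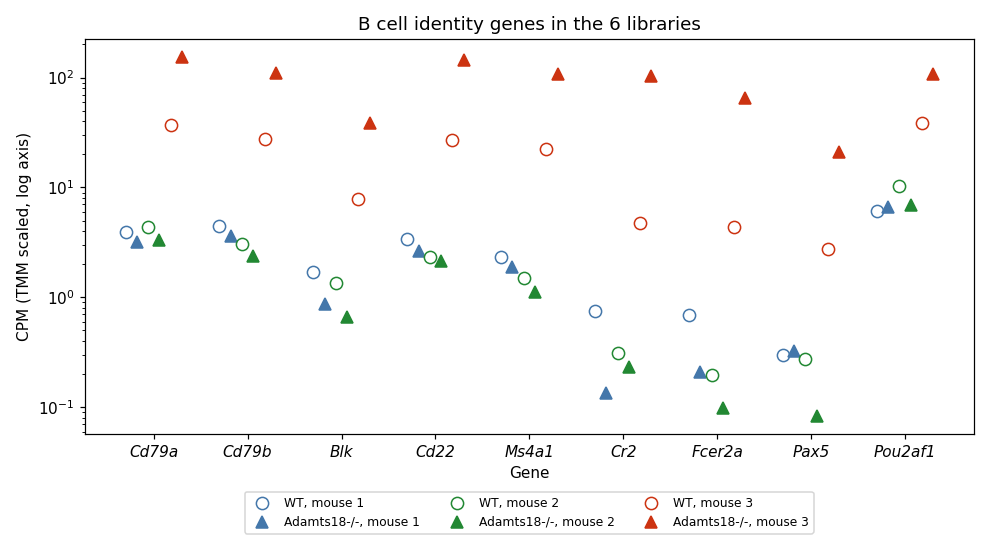
Level of each B cell identity gene in the 6 libraries (y axis, CPM, logarithmic; x axis, gene). Open circles are WT glands, filled triangles are Adamts18-/- glands and colours are host mice; for every gene the 2 glands of mouse 3 are the highest and its Adamts18-/- gland is the highest of all, reaching 154 CPM for Cd79a.

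The receptor chains Cd79a and Cd79b were the most abundant members per length together with Pou2af1. Cd79a was at 3.93, 4.40 and 37.1 CPM in WT glands and at 3.17, 3.33 and 154 CPM in the Adamts18-/- glands. Cd79b was at 4.49, 3.07 and 27.9 CPM in WT glands and at 3.65, 2.36 and 109 CPM in Adamts18-/- glands. In both genes the Adamts18-/- gland was a little below the WT gland in mice 1 and 2 and about 4 times as high in mouse 3. Per kilobase of exon, Cd79a, Cd79b and Pou2af1 held the first 3 ranks among the members in each of the 6 libraries, with Cd79a at 25.5 CPM per kilobase in the WT gland and 106 in the Adamts18-/- gland of mouse 3. Pax5 was last in 5 of the 6 libraries and Cr2 in the remaining one.

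Blk, the Src family kinase of B cells, was at 1.69, 1.35 and 7.89 CPM in the WT glands and at 0.880, 0.660 and 38.4 CPM in the Adamts18-/- glands. Its Adamts18-/- level was 0.520 of the WT level in mouse 1 and 0.488 of it in mouse 2. Cd22, the inhibitory lectin, was at 3.37, 2.35 and 27.0 CPM in WT glands and at 2.64, 2.13 and 145 CPM in Adamts18-/- glands. Ms4a1, which encodes the surface protein CD20, was at 2.35, 1.5 and 22.2 CPM in WT glands and at 1.87, 1.12 and 108 CPM in Adamts18-/- glands. Within each genotype the gland of mouse 3 was the highest for these 3 genes. The 4 glands of mice 1 and 2 ran from 0.660 to 1.69 CPM for Blk, from 2.13 to 3.37 for Cd22 and from 1.12 to 2.35 for Ms4a1.

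Cr2, the complement receptor CD21 of mature B cells, which follicular dendritic cells also carry, had the widest range of the 9 genes. It was at 0.746, 0.310 and 4.72 CPM in the WT glands and at 0.134, 0.231 and 103 CPM in the Adamts18-/- glands. These levels correspond to 52, 19 and 266 reads in WT and to 7, 14 and 6336 reads in Adamts18-/- glands. The Adamts18-/- gland of mouse 3 was 138 times the highest gland of mice 1 and 2, whereas the WT gland of mouse 3 was 6.34 times that level. Fcer2a, the low-affinity IgE receptor CD23 of follicular B cells, was at 0.688, 0.196 and 4.33 CPM in WT glands and at 0.210, 0.0990 and 64.7 CPM in Adamts18-/- glands, from 6 to 3979 reads. The lowest of these counts carry a wide counting error, and the high values of mouse 3 do not.

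Of the 2 genes that act in transcription, Pax5 had the lowest CPM of the members in both glands of mouse 3, and Pou2af1, a coactivator of octamer-binding factors, had the highest CPM of the members in each gland of mice 1 and 2. Pax5 was at 0.301, 0.277 and 2.75 CPM in the WT glands and at 0.325, 0.0825 and 20.9 CPM in the Adamts18-/- glands. Pou2af1 was at 6.09, 10.3 and 38.6 CPM in WT glands and at 6.60, 6.88 and 107 CPM in Adamts18-/- glands. Pou2af1 spread the least between the hosts, with the WT gland of mouse 3 at 3.76 times and the Adamts18-/- gland at 10.4 times the highest gland of mice 1 and 2. Over the other 8 members these folds were 4.66 to 9.44 for the WT gland and 22.7 to 138 for the Adamts18-/- gland.

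The first comparison asked whether the genes differed between Adamts18-/- and WT grafts over the 3 pairs. In the edgeR quasi-likelihood fit, blocked by mouse, 0 of the 9 members were lower at a fold under 0.8 with an unadjusted p under 0.05, where 1.84% of the 17345 tested genes were. Likewise 0 of 9 were higher past the study's upper fold limit with the same p, where 1.17% of all tested genes were. None of the 9 had an unadjusted p under 0.05 (0 of 9), and over all genes 0 had an adjusted p under 0.05 in this fit (670 had an unadjusted p under 0.05). That number depended on the setting. It was 71 with DESeq2 on the same 6 libraries and 268 with edgeR without the pair of mouse 3, with 0 members among them in each. The fitted log2 fold changes of the members lay between 0.18 (Blk) and 1.46 (Cr2), with a median of 0.65 against 0.00065 over all tested genes. For Cr2 the standard error was 1.68, and Cd22, which had the smallest p, was at 0.73 ± 0.65 (SE). The fitted sizes depended on the tool: on the same 6 libraries DESeq2 gave 0.017 for Blk, 0.095 for Fcer2a and 0.17 for Cr2 (median of the members 0.40), and limma-voom gave 3.01 for Fcer2a and 3.53 for Cr2 (median 1.64). Adjusted p-values were 0.987 for 8 members and 0.991 for Blk by edgeR. The direction rested on mouse 3: without that pair all 9 fitted values were negative, with a median of -0.36, and 2 of 9 passed as lower, where 1.65% of all tested genes did: Blk at -0.98 and Fcer2a at -1.42 on the log2 scale (adjusted p = 0.357 and 0.484, edgeR). With limma-voom in place of edgeR, Cr2, Fcer2a, Ms4a1, Cd22 and Pax5 passed the unadjusted threshold as higher (5 of 9, where 1.99% of all tested genes did), with adjusted p = 0.930 for each.

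**Figure D2:**
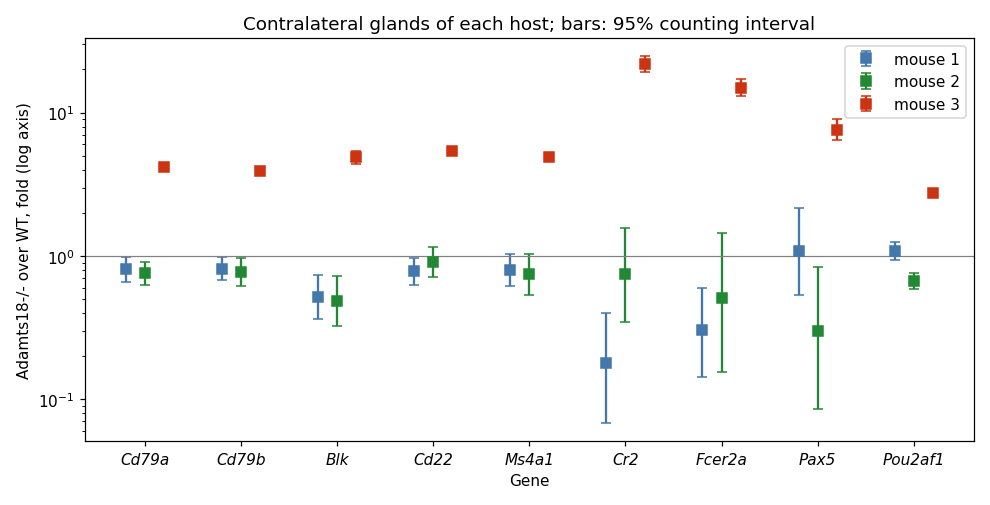
Ratio of the Adamts18-/- gland to the contralateral WT gland for each member (y axis, fold, logarithmic; x axis, gene), with 1 square per host mouse and bars for the exact 95% counting interval. Squares of mouse 3 lie between 2.77 and 21.8, and those of mice 1 and 2 lie between 0.180 and 1.08.

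The pairs of glands were then read one host at a time, with exact 95% intervals that cover counting error only, not the spread between animals. In mouse 1, 7 of the 9 genes were lower in the Adamts18-/- gland, and the interval left out 1 for 6 of them. The folds ran from 0.180 (0.0688 to 0.397) for Cr2 to 1.08 (0.937 to 1.251) for Pou2af1. In mouse 2, all 9 were lower, from 0.298 (0.0858 to 0.840) for Pax5 to 0.906 (0.709 to 1.16) for Cd22, and the interval left out 1 for 5. In mouse 3, all 9 were higher in the Adamts18-/- gland and every interval left out 1. The folds there were 2.77 for Pou2af1, 3.92 for Cd79b, 4.16 for Cd79a, 4.87 for Blk, 4.88 for Ms4a1, 5.37 for Cd22, 7.59 for Pax5, 14.9 for Fcer2a and 21.8 (19.3 to 24.8) for Cr2. For the summed reads the fold was 0.824 (0.761 to 0.891) in mouse 1, 0.712 (0.657 to 0.772) in mouse 2 and 4.93 (4.83 to 5.04) in mouse 3. Thus 7 of 9 members were lower in the first 2 Adamts18-/- glands and higher in the third, a pattern that 14.4% of all tested genes had. A log2 difference over 2 in mouse 3 was reached by 7 of 9 members and by 0.778% of all tested genes. Ranked by this difference among 17345 genes, Cr2 was number 5, Fcer2a number 12 and Pax5 number 33, and Pou2af1 was the lowest member at 332.

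The second comparison asked how the genes varied between the hosts, with genotype in the model. Each host here also stands for its donor and experiment. By the edgeR quasi-likelihood F test of the mouse term, 0 of 9 members had an adjusted p under 0.05, where 0.628% of all tested genes did. Their adjusted p-values lay between 0.0616 (Ms4a1) and 0.124 (Cr2) by edgeR. All 9 had an unadjusted p under 0.05 for the mouse term, as did 4724 genes or 27.2% of all. In both genotypes the gland of mouse 3 was above those of mice 1 and 2 for 9 of 9 genes, and this order, both glands of mouse 3 above all 4 of the others, was seen in 24.2% of all tested genes. With the Adamts18-/- library of mouse 3 left out, a choice made after its levels were seen, 7 of 9 members passed (adjusted p = 0.00730 for Cd79a, the smallest, and 0.0576 for Cr2, the largest, edgeR), beside 3.87% of all tested genes. In that fit mouse 3 was 1 WT gland, and the difference between its 2 glands no longer counted as spread. The smaller p-values can follow from this removal alone, so that fit cannot decide whether the hosts differed. With DESeq2 in place of edgeR 9 of 9 passed on all 6 libraries, beside 19.2% of all genes.

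The make-up of the B cell reads also differed between libraries. Cr2 took 12.1% of the reads on the 9 genes in the Adamts18-/- gland of mouse 3 and between 0.687% and 3.15% in the other 5 libraries. Fcer2a took 7.61% there and between 0.586% and 2.91% elsewhere. Per 100 reads of Cd79a there were 66.8 reads of Cr2 in that gland and between 4.22 and 19.0 in the other 5. The shares of Cr2, Fcer2a, Pax5 and Cd22 were thus at their highest in this library, while that of Pou2af1 was at its lowest with 12.6%, against 22.4% to 43.3% in the other libraries, and Cd79b was lowest there by a narrow margin (12.85%, against 12.92% or more). Cd79a, the receptor chain, kept a share between 16.3% and 21.5% in all 6 libraries. For Pax5 this ranking is loose, since the Adamts18-/- gland of mouse 1 had 17 reads of it. The exact 95% counting interval of its share there, 0.975% to 2.66%, covered the 2.455% of the Adamts18-/- gland of mouse 3. These shares were not tested between groups.

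**Figure D3:**
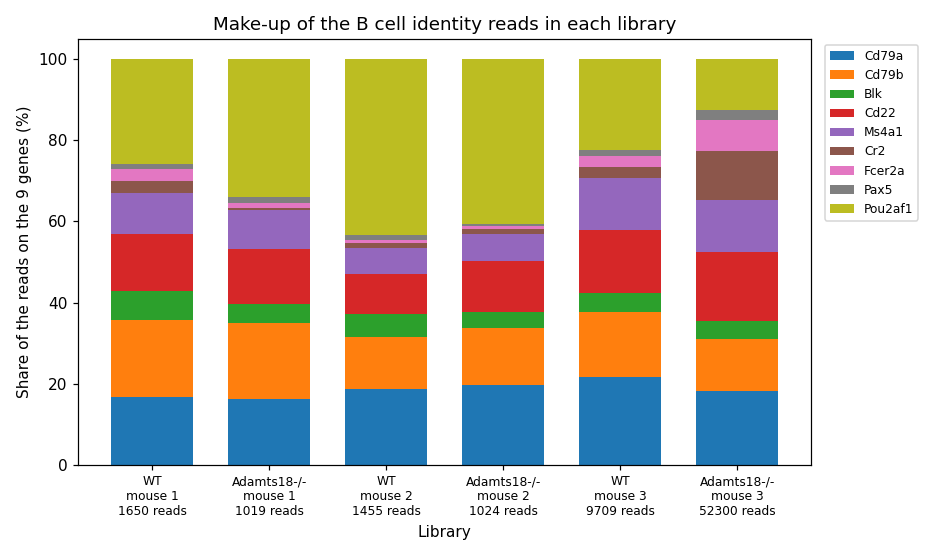
Share of each member in the reads on the 9 genes (y axis, percent, from 0; x axis, the 6 libraries with their read total on these genes). Stacked bars add up to 100, and the Cr2 and Fcer2a segments are widest in the Adamts18-/- gland of mouse 3, at 12.1% and 7.61%.

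Other genes of the B cell lineage were followed as 3 lists. Of 21 genes that signal from the B cell receptor, 0 passed the thresholds in either direction over the 3 pairs, with a median log2 fold change of 0.34. In mouse 3, 21 of 21 were higher in the Adamts18-/- gland, with a median log2 difference of 1.06, and the summed level of the list was 947 CPM in the WT gland and 1913 CPM in the Adamts18-/- gland. In mice 1 and 2 the list summed to between 575 and 707 CPM. Syk and Fcgr2b, a kinase and an inhibitory Fc receptor that myeloid cells also express, were its most abundant members, with 7379 and 14275 reads of Syk and 4609 and 7030 reads of Fcgr2b in the WT and Adamts18-/- glands of mouse 3.

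Among 14 other surface proteins of B cells, 13 were tested and 1 passed as higher, where 1.17% of all tested genes did. This was Cd55, a complement regulator found on most cell types, with 142, 89.5 and 141 CPM in WT and 177, 137 and 152 CPM in Adamts18-/- glands (log2 fold change 0.34 ± 0.12 SE, adjusted p = 0.987, edgeR). Cd55 and Ly6d, the latter also expressed in epithelia, were the most abundant genes of this list, and Ly6d had a fitted value of -0.048. The median of the list was 0.51 over the 3 pairs and 1.42 in mouse 3. Of 14 other transcription factors of the lineage 0 passed, with a median of 0.27, or 1.04 in mouse 3. Foxo1 and Irf4, its most abundant members, also have roles outside B cells. Their log2 differences in mouse 3 were 0.099 and -0.085, while Spib, Ikzf3 and Bcl11a, chosen after their values were seen, differed by 1.88, 1.75 and 1.76 there. In that mouse 11 of the 14 were higher in the Adamts18-/- gland, and Irf4, Ebf1 (-0.24) and Bcl6 (-0.047) were lower. Ebf1 was at 139, 125 and 87.1 CPM in WT and at 134, 135 and 73.9 CPM in Adamts18-/- glands.

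Of 8 plasma cell genes 0 passed between genotypes, with a median log2 fold change of -0.021. They had signs like those of the identity genes, lower in the Adamts18-/- gland for 6 of 8 in mouse 1 and 7 of 8 in mouse 2 and higher for 7 of 8 in mouse 3, but with a median log2 difference of 0.25 in mouse 3 against 2.29 for the identity genes. Mzb1 and Slamf7 had the widest differences there, 0.81 and 0.77. Their summed level was 637, 912 and 2170 CPM in WT and 643, 795 and 2380 CPM in Adamts18-/- glands, so that the Adamts18-/- gland of mouse 3 was at 1.10 times its WT partner where the identity genes were at 4.93 times. In mouse 3 most of this sum is the single gene Jchain, and the difference between the 2 lists was not tested. Between hosts, 3 of the 8 passed, where 0.628% of all tested genes did: Jchain (listed as Igj), the joining chain of secreted antibody, Derl3 and Mzb1, both of the secretory pathway. Jchain was counted at 13739, 29914 and 92701 reads in WT and at 11401, 20158 and 109958 reads in Adamts18-/- glands (adjusted p = 0.0470 for the mouse term, edgeR). This lies just under the threshold, and the number of all genes called between hosts ranged from 12 to 3326 over the alternatives. Xbp1, a secretory regulator that epithelium also uses, was the next most abundant gene and had a log2 difference of -0.019 in mouse 3.

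**Figure D4:**
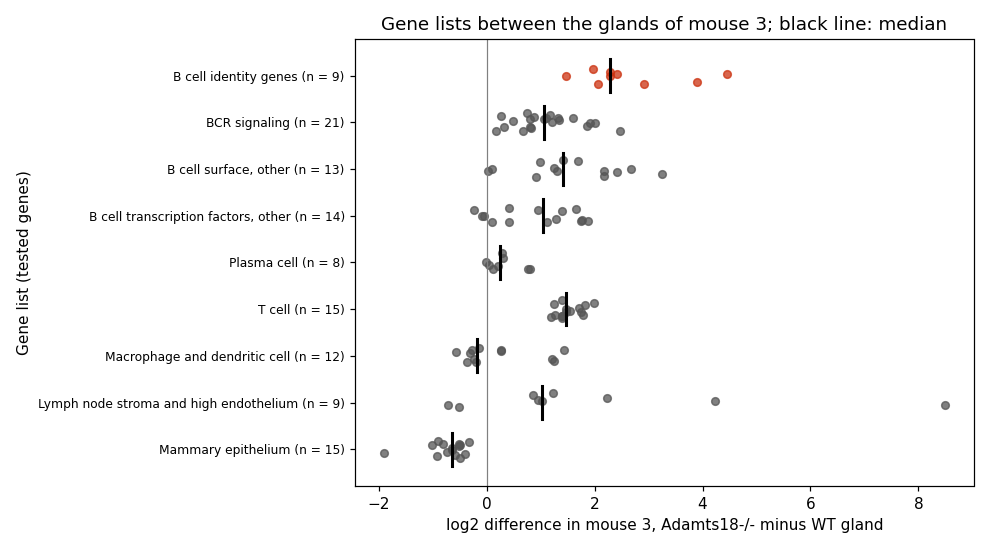
log2 difference between the Adamts18-/- and WT glands of mouse 3 (x axis) for the tested genes of each list (y axis); 1 point per gene, the black line is the median. Medians are 2.29 for the identity genes, 1.46 for T cell genes, 0.25 for plasma cell genes and -0.64 for mammary epithelial genes.

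Markers of other cell types were set beside the members in the same libraries. All 15 T cell genes were higher in the Adamts18-/- gland of mouse 3, with a median log2 difference of 1.46, and 0 of 15 passed over the 3 pairs. In mouse 1, 13 of the 15 were lower in the Adamts18-/- gland, and in mouse 2 all 15 were. The signs of the identity genes were thus shared by T cell genes. Tcf7 and Lck were the most abundant, with 2125 and 7616 reads of Lck in the WT and Adamts18-/- glands of mouse 3. Of the 12 macrophage and dendritic cell genes 0 passed, and 5 were higher and 7 lower in the Adamts18-/- gland of mouse 3, with a median log2 difference of -0.17. The dendritic cell genes Flt3, Siglech and Xcr1 differed by 1.43, 1.246 and 1.22 there, near the T cell median, and the macrophage genes Mrc1 and C1qa by -0.56 and -0.37. These 5 were chosen after their values were seen and do not stand for the whole list. Itgax and Lyz2, of the same list, differed by 0.27 each. The summed level, 2688 CPM in the WT gland and 2693 CPM in the Adamts18-/- gland of mouse 3, is mostly that of abundant macrophage genes. Lyz2 was the most abundant gene of the list at 39376 reads or more in every library, followed by Csf1r with 12560 reads or more. These defining myeloid genes were thus far above 0 in all libraries, although the labels name sorted epithelial cells.

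Genes of lymph node stroma and of high endothelial venules, the vessels through which lymphocytes enter a node, summed to 198, 174 and 158 CPM in WT and to 202, 242 and 528 CPM in Adamts18-/- glands. Of 12 genes on this list 11 were in the table and 9 were tested, and 1 passed as higher, where 1.17% of all tested genes did. This was Cxcl13, the chemokine of B cell follicles, with 1842, 1854 and 1793 reads in WT and 1521, 2513 and 3984 reads in Adamts18-/- glands (log2 fold change 0.54, adjusted p = 0.987, edgeR). Lyve1, which lymphatic vessels outside nodes also express, and Glycam1 had the highest mean levels of the list, Lyve1 with a log2 difference of -0.72 in mouse 3. The next 3 genes after Glycam1 were chosen with their values in view. Glycam1, made by high endothelial venules and also a milk protein, was counted at 196, 15 and 55 reads in WT and at 10, 10 and 21921 reads in Adamts18-/- glands. Chst4, the sulfotransferase of these venules, was at 3, 0 and 1 reads in WT and at 1, 0 and 181 reads in Adamts18-/- glands. Madcam1, a ligand for lymphocyte homing, was at 12, 26 and 25 reads in WT and at 11, 19 and 130 reads in Adamts18-/- glands. Fcamr, an Fc receptor found on follicular dendritic cells, was at 32, 20 and 11 reads in WT and at 15, 30 and 234 reads in Adamts18-/- glands. Over the 9 tested genes of this list, 7 were higher in the Adamts18-/- gland of mouse 3, and Pdpn, a marker of node stroma also found on other cells, was lower there as Lyve1 was (log2 difference -0.50). Ccl21a, a chemokine of node stroma, had 1 read in that gland and 0 in the other 5 libraries. It was not tested. How reads that map to several places were handled is not given, so these counts do not show that the gene was absent. Glycam1, Chst4, Madcam1 and Fcamr were highest in the gland in which Cr2 was highest, whereas in the WT gland of mouse 3, where the identity genes were also above mice 1 and 2, Glycam1, Chst4 and Fcamr were below the highest of mice 1 and 2 and Madcam1 was at 0.444 CPM against 0.424. The part of node tissue in the results on the identity genes was not tested.

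Of 16 mammary epithelial genes 15 were tested, and 10 passed as lower in Adamts18-/- glands and 0 as higher, with a median log2 fold change of -0.52. Of all tested genes 1.84% passed as lower and 1.17% as higher. In the Adamts18-/- gland 8 of the 15 were lower in mouse 1, 14 in mouse 2 and 15 in mouse 3, with median log2 differences of -0.12, -0.72 and -0.64, beside -0.32, -0.42 and 2.29 for the identity genes. The 2 lists thus had medians of the same sign in mice 1 and 2 and of opposite sign in mouse 3. The epithelial genes' summed level was 2370, 3179 and 3062 CPM in WT and 2117, 2039 and 2002 CPM in Adamts18-/- glands. Krt19, Krt17 and Prlr had the smallest p (log2 fold changes -0.62, -0.61 and -0.59, adjusted p = 0.987 each, edgeR), and Krt19 and Acta2 were the most abundant. Per 1000 CPM of the epithelial list, the identity genes stood at 9.98, 7.46 and 56.3 CPM in WT and at 9.20, 8.29 and 425 CPM in Adamts18-/- glands. On this scale the Adamts18-/- gland was below the WT gland in mouse 1 and above it in mice 2 and 3. The part of the lower epithelial level in the results on the identity genes was not tested.

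Finally, the genes whose level followed the members most closely were listed, by Pearson's r of log2 CPM with the mean of the members over the 6 libraries, as a description with no p. The libraries of mouse 3 lie apart from the other 4, and 985 of 14555 candidates with a mean of at least 1 CPM had an r over 0.95. Among the 10 closest were Fcrl1 (r = 0.9998), Serpina1b, Tnfrsf13c, Traf1, Gm1966, Siglecg, Flt3l, Cacna1i and A530040E14Rik, the last with r = 0.9976. Fcrl1, an Fc receptor-like protein of B cells, was at 1.20, 0.848 and 7.44 CPM in WT and at 0.822, 0.578 and 39.7 CPM in Adamts18-/- glands. Tnfrsf13c, the receptor for the B cell survival factor BAFF, was at 0.602, 0.489 and 4.39 CPM in WT and at 0.497, 0.363 and 28.2 CPM in Adamts18-/- glands. Fcrl1, Tnfrsf13c and Siglecg were on the B cell lists above. With mouse 3 left out, over the 4 remaining libraries, r of the 10 genes lay between 0.892 and 0.993. The 10 had been picked over libraries that include these 4. Over the same 4, r of the members with their own mean ran from -0.083 (Pou2af1) to 0.967 (Blk). Between pairs of members the lowest r was then -0.514 and the median 0.67.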

How the data were processed

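RNA was sequenced as single-end reads of 85 bp on an Illumina NextSeq 500. According to the submitters' processing notes, bcl2fastq 2.18, TopHat2 2.0.11, featureCounts 1.6.2, edgeR and the build mm9 were used, with no roles given. The authors deposited raw read counts per gene symbol, 1 column per library (0 columns of other samples), and multi-mapped or strand-ambiguous reads may have been handled in ways not given in the sources used here. Samples were grouped by the genotype and mouse number in their titles, and separate hosts are the replicates (n = 3 pairs). Glands of the same number come from 1 host, and their deviations from the group means correlated (r = 0.512, 0.505 and 0.639).

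Counts were fitted over the whole table in R 4.3.3 with edgeR 4.0.16 (TMM, filterByExpr, glmQLFit, genotype plus mouse), which kept 17345 genes. The study's thresholds were applied (fold below 0.8 or above 1.25, unadjusted p under 0.05), and p-values were adjusted by Benjamini-Hochberg over all tested genes. The mouse term was tested by the F test of the same fit. CPM used TMM factors, log2 CPM a prior count of 2, and log2 differences within a host 0.5 added reads. Folds within a host have exact binomial 95% intervals (scipy), which cover counting error only. Lengths are unions of exons in GENCODE M21 (GRCm38). Alternatives were no block, DESeq2 1.42.0, limma-voom (limma 3.58.1), other scalings and filters, and leaving out each pair. The fits were tested on simulated data. There both glands of mouse 3 shared each simulated host change, so a difference particular to 1 gland of that mouse was not covered. Symbols such as Mzb1 and Fcmr were matched through older names. Named were all members, per list the called genes (up to 3) and the 2 most abundant, and the 10 genes most like the members. A gene that this rule selects is left out of the text, though it stayed in the fits and lists. The members and lists were chosen with earlier results of these data known.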

Additional observations from a re-analysis of the deposited data

How the results depend on the processing

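All 9 fitted fold changes of the identity genes were positive on 6 libraries, under the other scalings, the filters (with at least 10 counts in every library 6 members remained, without Cr2, Fcer2a and Pax5), DESeq2 and limma-voom, and turned negative whenever the Adamts18-/- library of mouse 3 was absent. Leaving out each pair, or that library alone (added after its levels were seen), gave log2 fold changes from -0.36 to 1.12 for Ms4a1, -0.35 to 0.96 for Cd79a, -0.33 to 0.90 for Cd79b, -0.60 to 1.84 for Pax5, -0.98 to 0.83 for Blk, -1.41 to 3.08 for Cr2, -1.43 to 2.81 for Fcer2a, -0.24 to 1.26 for Cd22 and -0.23 to 0.82 for Pou2af1. Across these, the identity genes called ranged from 0 to 4 (Blk, Cd79a, Cr2 and Fcer2a, all lower, without that library), all genes called from 533 to 884, called genes of the 4 B cell and plasma cell lists from 2 to 4, identity genes called between hosts from 0 to 7 and all genes called between hosts from 12 to 682. The highest counts between hosts, 7 and 682, came from the fit without that library. It holds no spread between the glands of mouse 3, so these 2 counts decide nothing about the hosts. Without the replicate block the fold changes were 1.13 to 4.17, 0 members, 343 genes in all and 0 genes of the lists were called. The same fit also without that library gave -2.53 for Ms4a1, -2.21 for Cd79a, -1.97 for Cd79b, -2.44 for Pax5, -2.23 for Blk, -3.36 for Cr2, -3.48 for Fcer2a, -2.19 for Cd22 and -1.44 for Pou2af1, with 0 members called and 2 genes of the lists.

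With limma-voom 5 members and 9 genes of the lists were called. With DESeq2, 3 genes of the lists were called, and 9 members and 3326 genes in all between hosts. With no filter on low counts these were 2, 5 and 1106. Library size alone and an absolute log2 fold change over 0.5 each gave 0 genes of the lists. The causes of these moves were not tested. Adjusted p-values of the members between genotypes lay between 0.265 and 1 over all alternatives with a test. Scaling the libraries to the mammary epithelium list, also added later, moved the median of all genes from 0.00065 to 0.47. That of the members moved from 0.65 to 1.05, which was 0.58 above the median of all genes. The p-values of this scaling are not used, because edgeR then estimated an infinite prior df and gave every gene the same spread. Depth limits the low values, since Pax5, Cr2 and Fcer2a had 5 to 52 reads per library in mice 1 and 2.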
